A study of Mus musculus with 9 samples.

Results

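The 10 genes described here are the white adipocyte genes and adipokines *Adipoq*, *Lep*, *Retn*, *Cfd*, *Car3*, *Plin1*, *Cidec*, *Fabp4*, *Lipe* and *Pparg*. They were taken by gene name from the 41710 gene names of the cardiac transcriptome, and all 10 passed the expression filter. Their 39 transcript rows, of 127558 in all, were summed by gene. Whole hearts were sequenced from male mice with FVB/N background at an age of 8 months on a standard rodent diet, with 3 hearts per group. Tg-RKIP mice carry a transgene for the Raf kinase inhibitor protein, RKIP, which is expressed specifically in the myocardium under control of the alpha-MHC promoter. A further group of hearts was labelled as from Tg-GRK2 mice, with a transgene for the G protein-coupled receptor kinase GRK2, and its promoter is not given in the sources used here. Control hearts were from non-transgenic FVB/N mice, called FVB here. How many founder lines contributed hearts to either transgenic group is not given either. Hearts were pulverised as a whole, so any fat attached to the heart entered the RNA with the muscle. More adipocytes, more RNA per adipocyte and expression in cardiomyocytes or other cells cannot be told apart in such samples.

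The libraries held 25458108 to 33447654 reads. *Pebp1*, the gene of RKIP, had 252196 to 321666 reads per Tg-RKIP library and 7140 to 8446 reads per FVB library. *Grk2* had 27.3 ± 2.90 TPM in hearts labelled Tg-GRK2 and 27.1 ± 1.05 TPM in FVB (mean ± s.d., n = 3 each), with a log2 fold change of 0.054 (adjusted p = 0.354, edgeR's quasi-likelihood test), so these libraries are named by their label throughout. TPM values divide the reads by transcript length and rescale every library to the same total, which makes levels of different genes comparable. Mitochondrially encoded genes made up 11.7% of all reads for Tg-RKIP and 23.1% for FVB, and this moves the TPM of all other genes. The log2 fold changes below are therefore those of TMM-normalised counts, a scaling on which the median gene differed by 0.0085 between Tg-RKIP and FVB hearts, whereas scaling to library size alone put that median at 0.38. An adjusted p under 0.05 over the 15504 genes tested was the threshold for a change. The 8 cardiomyocyte genes read as a check of the tissue, among them *Myh6* and *Tnnt2*, summed to between 47669 and 49903 TPM in every library. Scaled by TMM, their summed counts were 1077137 to 1091656 in Tg-RKIP against 1749174 to 1778679 in FVB. In TMM-normalised counts, 6 of these 8 had lower values in Tg-RKIP hearts than in those of FVB mice and 1 was higher, with a median of -0.67, and *Ryr2*, *Myh6* and *Pln* fell by 2.07, 1.35 and 1.34. *Tnnt2* was among the 6 at -0.10 and turned to 0.28 with scaling to library size alone, and *Tnni3*, at -0.52, did not pass by limma on log2(TPM + 0.1) without a filter, at -0.052 (adjusted p = 0.120). The part of this fall in the levels of the 10 genes was not tested.

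White adipocytes store triglycerides in a single large lipid droplet and act as endocrine cells. Their adipokines include adiponectin and leptin, and their droplet proteins control how stored fat is released as fatty acids. The nuclear receptor PPARG and the C/EBP transcription factors drive the adipocyte programme, and many genes on this list are known targets of these factors. In the heart, white adipocytes are known from epicardial and pericardial fat, while cardiomyocytes burn fatty acids and store little fat. Some of the 10 genes are not restricted to adipocytes. *Fabp4* is also a gene of capillary endothelium, *Pparg* is expressed in endothelium and macrophages, and *Lipe* is expressed in muscle.

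RefSeq promoter sequences of build GRCm38.p6, running from 250 bases before to 50 bases after a gene start, were matched by symbol for 8 of the 10 genes, which gave 12 promoters. They were searched on both strands for TTGCNNAA, the letters shared by many C/EBP binding sites. It was found in 4 of the 12 promoters and in 10.8% of the 32851 promoters of the whole reference table. The palindrome TTGCGCAA, which is contained in the former, occurred in the *Lep* promoter alone among the 12 and in 0.183% of all promoters. The PPAR-RXR double site AGGTCANAGGTCA was in none of the 12 and in 0.0396% of all promoters, and no match says only that these letters are not in this window. A single copy of AGGTCA was in 2 of the 12, both upstream promoters of *Pparg*, and in 16.3% of all promoters. The TATA letters TATAAA, searched on the strand of the gene, were in 0 of the 12 and in 8.32% of all promoters. The 4 promoters are shown because the genes were measured together with the C/EBP genes, with the C/EBP letters in capitals. They lie at chr6:29059971-29060270 on the plus strand for *Lep*, chr7:79732727-79733026 on the minus strand for *Plin1*, chr6:113434715-113435014 on the minus strand for *Cidec* and chr6:115421816-115422115 on the plus strand for the downstream start of *Pparg*, all in GRCm38.p6.
Lep promoter: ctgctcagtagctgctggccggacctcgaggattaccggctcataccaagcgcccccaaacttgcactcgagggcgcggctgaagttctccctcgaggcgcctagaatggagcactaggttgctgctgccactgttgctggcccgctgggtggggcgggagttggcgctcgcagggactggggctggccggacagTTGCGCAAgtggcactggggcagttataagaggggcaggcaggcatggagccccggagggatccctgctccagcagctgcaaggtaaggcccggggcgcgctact
Plin1 promoter: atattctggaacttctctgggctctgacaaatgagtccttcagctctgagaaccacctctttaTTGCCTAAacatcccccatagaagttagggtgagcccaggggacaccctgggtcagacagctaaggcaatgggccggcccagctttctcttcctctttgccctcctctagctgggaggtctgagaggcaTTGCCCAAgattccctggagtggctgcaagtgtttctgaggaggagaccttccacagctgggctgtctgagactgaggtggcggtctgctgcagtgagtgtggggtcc
Cidec promoter: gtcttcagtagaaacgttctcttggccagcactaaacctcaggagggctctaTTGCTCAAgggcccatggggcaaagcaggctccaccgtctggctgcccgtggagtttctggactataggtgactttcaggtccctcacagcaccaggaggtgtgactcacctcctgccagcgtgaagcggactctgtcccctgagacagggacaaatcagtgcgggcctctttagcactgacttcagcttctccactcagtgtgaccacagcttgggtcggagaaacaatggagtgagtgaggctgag
Pparg downstream promoter: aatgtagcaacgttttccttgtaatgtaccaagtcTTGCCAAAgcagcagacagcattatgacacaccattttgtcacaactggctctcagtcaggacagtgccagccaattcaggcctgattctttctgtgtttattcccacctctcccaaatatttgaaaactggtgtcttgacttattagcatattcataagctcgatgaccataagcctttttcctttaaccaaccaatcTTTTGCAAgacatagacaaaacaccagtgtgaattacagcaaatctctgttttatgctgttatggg
In the *Lep* promoter, the match begins 55 bases before the gene start, and in the *Plin1* promoter the matches begin 187 and 58 bases before it. The match in the *Cidec* promoter begins 198 bases before the start. In the downstream *Pparg* promoter the matches begin 215 and 16 bases before the start. These are matches of letters, not measured binding sites.

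All 10 genes had higher transcript levels in Tg-RKIP than in FVB hearts and passed the threshold. Of all genes tested, 36.8% were higher in this comparison, so the count of 10 is to be read against a wide shift of the transcriptome. The sizes fell into separate ranges. The 3 hormones, *Cfd*, *Car3*, *Plin1* and *Cidec* were higher by a log2 fold change of at least 1, which was passed by 10.2% of all genes, and their values lay between 2.22 and 3.12. *Lipe*, *Pparg* and *Fabp4* differed by 0.31, 0.22 and 0.084 in TMM-normalised counts, and by 0.69, 0.60 and 0.46 when libraries were scaled to size alone. The median over the 10 genes was 2.41. On the ranking of all 15504 genes by log2 fold change, *Cfd*, *Cidec*, *Adipoq*, *Car3*, *Plin1*, *Retn* and *Lep* held ranks 149, 183, 197, 245, 271, 303 and 342 from the top. *Lipe*, *Pparg* and *Fabp4* held ranks 4733, 5519 and 6934.

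The hearts labelled Tg-GRK2 had an intermediate and less uniform pattern. Compared with FVB, 5 of the 10 genes were higher, namely *Adipoq*, *Lep*, *Car3*, *Plin1* and *Cidec*, where 12.2% of all genes tested were higher. Of these, 4 were higher by a log2 fold change of at least 1, which was passed by 0.929% of all genes. *Fabp4* was lower, as were 12.2% of all genes. *Retn*, *Cfd*, *Lipe* and *Pparg* did not pass the threshold. The median over the 10 genes was 0.82, and over all genes it was -0.0023. Compared directly with hearts labelled Tg-GRK2, Tg-RKIP hearts had higher levels of all 10 genes, where 37.9% of all genes were higher, and 6 of them were higher by at least 1 log2 unit, where 9.89% of all genes were. In TMM-normalised counts, every Tg-RKIP library lay above every FVB library for all 10 genes (38.0% of all genes) and above every library labelled Tg-GRK2 for all 10 (39.1% of all genes). Hearts labelled Tg-GRK2 lay wholly above FVB for 6 of the 10 (18.5% of all genes). These 3 comparisons share libraries and are not independent of each other.

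**Figure D1:**
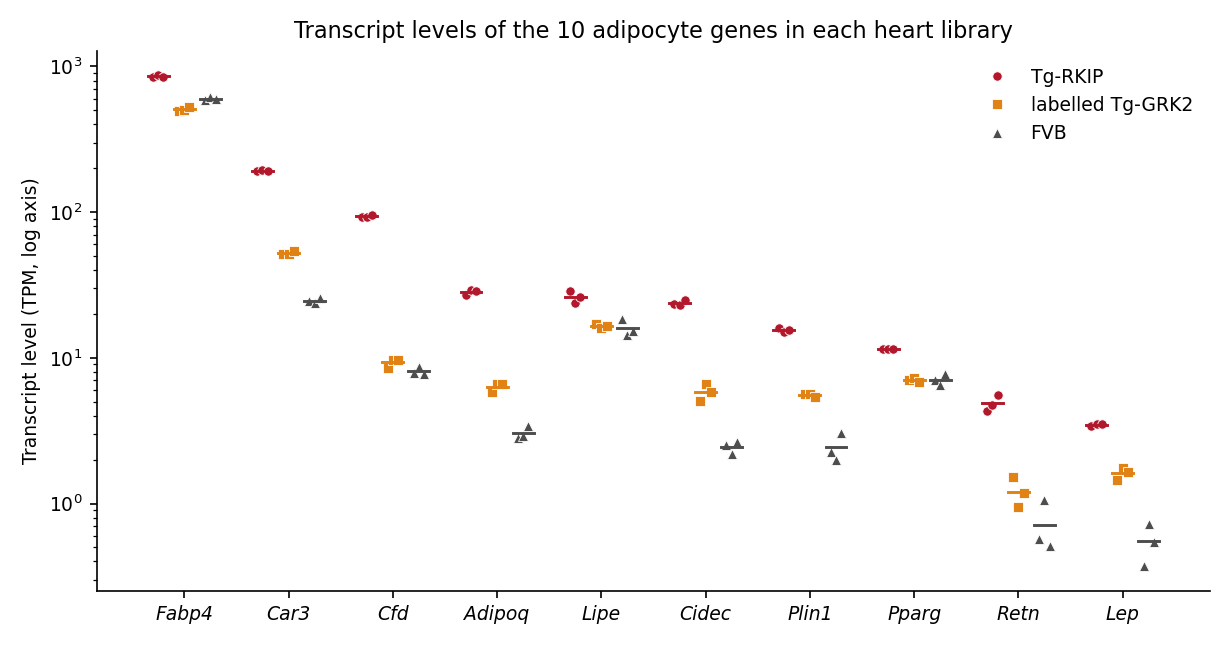
Transcript levels in TPM on a log axis, with 1 point per heart library and a line at the mean of each group (n = 3). The Tg-RKIP libraries lie above all FVB libraries for each of the 10 genes, and for *Fabp4* hearts labelled Tg-GRK2 lie below FVB.

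**Figure D2:**
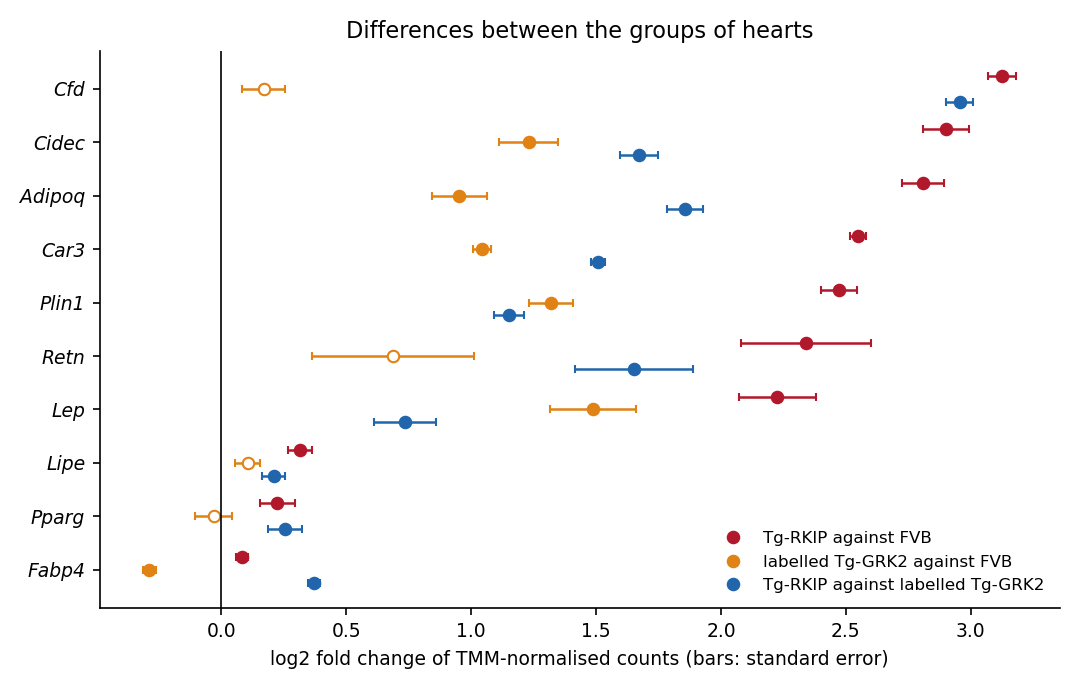
The log2 fold changes of TMM-normalised counts between groups, with standard errors from edgeR; filled points passed the adjusted threshold of 0.05 and open points did not. *Cfd* was the highest of the 10 in Tg-RKIP against FVB at 3.12 and did not pass in hearts labelled Tg-GRK2 against FVB at 0.17.

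Among the hormones, *Adipoq* (chr16:22965286-22976778 in GRCm39, plus strand), which encodes the insulin-sensitising hormone adiponectin, had 26.8, 29.0 and 28.8 TPM in the Tg-RKIP libraries. Hearts labelled Tg-GRK2 had 5.80, 6.58 and 6.63 TPM of it, and FVB had 2.81, 2.92 and 3.38 TPM. The 3 groups did not overlap, with FVB lowest. Against FVB, its level was higher by 2.81 log2 units (standard error 0.084, adjusted p = 6.75e-18 by edgeR) in Tg-RKIP hearts and by 0.95 (standard error 0.11, adjusted p = 1.08e-06 by edgeR) in the hearts labelled Tg-GRK2.

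*Lep* (chr6:29060219-29073876, plus strand) encodes leptin, the satiety hormone secreted by adipocytes. It had 186, 247 and 190 reads in Tg-RKIP, 90, 104 and 115 reads in hearts labelled Tg-GRK2 and 22, 49 and 32 reads in FVB. In TPM these were 3.48 ± 0.0587, 1.62 ± 0.149 and 0.549 ± 0.178 (mean ± s.d., n = 3 each). Again every library of a group lay apart from those of the others. The log2 fold change against FVB was 2.22 (standard error 0.15, adjusted p = 2.12e-11 by edgeR) in Tg-RKIP and 1.49 (standard error 0.17, adjusted p = 1.07e-06 by edgeR) in hearts labelled Tg-GRK2. Over all alternatives, these values ranged from 1.54 to 2.60 and from 0.76 to 1.76. Between the transgenic groups *Lep* differed by 0.74 (adjusted p = 1.68e-05 by edgeR), the smallest such difference among the 7 genes that rose strongly in Tg-RKIP hearts.

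*Retn* (chr8:3705770-3710110, plus strand) encodes resistin, an adipokine that opposes insulin action in mice. Its counts were low in all groups, with 25, 15 and 22 reads in hearts labelled Tg-GRK2 and 9, 19 and 8 reads in FVB. The Tg-RKIP libraries had 65, 89 and 82 reads, above every other library, or 2.34 log2 units higher than in FVB (standard error 0.26, adjusted p = 5.56e-08 by edgeR). Hearts labelled Tg-GRK2 and FVB overlapped, at 0.69 (standard error 0.32, adjusted p = 0.137 by edgeR). This value rests on FVB replicate 2, because without it the log2 fold change was 1.11 and passed with an adjusted p of 0.039 by edgeR.

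*Cfd* (chr10:79726687-79728489, plus strand) encodes adipsin, the complement factor D that activates the alternative complement pathway and is made in large amounts by adipocytes. Tg-RKIP hearts had 92.3, 92.8 and 95.3 TPM. Hearts labelled Tg-GRK2 had 8.53, 9.72 and 9.71 TPM, and FVB had 7.85, 8.70 and 7.69 TPM, so these groups overlapped. In Tg-RKIP hearts it was higher by 3.12 log2 units than in FVB (standard error 0.057, adjusted p = 8.99e-22 by edgeR) and by 2.96 than in hearts labelled Tg-GRK2 (standard error 0.055, adjusted p = 1.13e-21 by edgeR). Hearts labelled Tg-GRK2 differed from FVB by 0.17 (standard error 0.086, adjusted p = 0.199 by edgeR). By limma on log2(TPM + 0.1) the same difference was 0.20 and just passed, with an adjusted p of 0.046. Over all alternatives it ranged from 0.13 to 0.49.

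*Car3* (chr3:14928572-14937583, plus strand) encodes carbonic anhydrase III, an abundant cytosolic protein of adipocytes that is also found in slow skeletal muscle. The Tg-RKIP libraries had 193, 193 and 193 TPM, hearts labelled Tg-GRK2 had 51.9, 51.4 and 54.2 TPM and FVB had 24.5, 23.8 and 25.9 TPM. The groups were far apart relative to their spread. The log2 fold changes against FVB were 2.55 (standard error 0.032, adjusted p = 1.89e-24 by edgeR) and 1.04 (standard error 0.036, adjusted p = 3.33e-15 by edgeR) for Tg-RKIP and hearts labelled Tg-GRK2. Of the 5 skeletal muscle genes tested, 2 were higher in Tg-RKIP hearts than in FVB, where 36.8% of all genes were higher. In hearts labelled Tg-GRK2, 0 passed the threshold, where 12.2% of all genes were higher. *Tnnt3*, the troponin T gene of fast muscle, had 81, 84 and 53 reads in Tg-RKIP and 11, 12 and 19 reads in FVB, or 1.99 log2 units more (adjusted p = 5.50e-07 by edgeR). The fast myosin gene *Myh1* had 5 to 13 reads in every library and was not tested. The skeletal muscle list holds mainly genes of fast muscle and says little of slow muscle. The part of skeletal muscle in the *Car3* level was not tested.

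Of the genes of lipid droplet proteins, *Plin1* and *Cidec* are on the list. *Plin1* (chr7:79369966-79382651, minus strand) encodes perilipin 1, which coats the adipocyte droplet and holds lipases in check until a lipolytic signal arrives. It had 16.0, 15.1 and 15.4 TPM in Tg-RKIP, 5.66, 5.67 and 5.36 TPM in hearts labelled Tg-GRK2 and 2.25, 1.99 and 3.04 TPM in FVB, without overlap between groups. The log2 fold change against FVB was 2.47 (standard error 0.074, adjusted p = 6.09e-18 by edgeR) in Tg-RKIP and 1.32 (standard error 0.088, adjusted p = 2.27e-10 by edgeR) in hearts labelled Tg-GRK2.

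*Cidec* (chr6:113401595-113412721, minus strand) encodes a protein that fuses small droplets into larger ones. Its level was 23.3, 22.9 and 24.8 TPM in Tg-RKIP, 5.05, 6.64 and 5.85 TPM in hearts labelled Tg-GRK2 and 2.50, 2.19 and 2.65 TPM in FVB. The groups did not overlap, and the log2 fold changes against FVB were 2.90 (adjusted p = 1.59e-17 by edgeR) and 1.23 (adjusted p = 5.82e-08 by edgeR). These are sums over transcripts. The 2 most abundant *Cidec* transcripts, 1720 and 1703 bases long, exchanged their reads between libraries of a group, with 0, 0 and 180 reads of the longer and 163, 206 and 7 reads of the shorter in hearts labelled Tg-GRK2. In a fit of the most abundant transcript alone, *Cidec* still passed in Tg-RKIP against FVB, at 3.06 (adjusted p = 0.0395 by edgeR). It did not pass there in the other comparisons, at 1.32 in hearts labelled Tg-GRK2 against FVB (adjusted p = 0.532 by edgeR) and 1.74 in Tg-RKIP against hearts labelled Tg-GRK2 (adjusted p = 0.170 by edgeR).

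*Fabp4*, *Lipe* and *Pparg* had the smallest differences of the 10 in Tg-RKIP against FVB. *Fabp4* (chr3:10269148-10273636, minus strand), which encodes the fatty acid-binding protein of adipocytes, was the most abundant of the 10 in all groups. It had 845, 869 and 851 TPM in Tg-RKIP, 492, 505 and 525 TPM in hearts labelled Tg-GRK2 and 587, 617 and 595 TPM in FVB. The log2 fold change in Tg-RKIP against FVB was 0.084 (standard error 0.024, adjusted p = 0.00379 by edgeR). In hearts labelled Tg-GRK2 it was -0.29 against FVB (standard error 0.024, adjusted p = 1.06e-08 by edgeR), the opposite direction to *Adipoq* in the same libraries. Among 9 genes of capillary endothelium, where *Fabp4* is also expressed, 3 were higher, 5 lower and 1 not changed past the threshold in Tg-RKIP against FVB. Of the 5, 1 turned to a positive value with scaling to library size alone. By limma on log2(TPM + 0.1), *Cdh5* and *Tek* among the 5 did not pass, at -0.046 (adjusted p = 0.117) and -0.064 (adjusted p = 0.190). Of the 3 higher genes, *Tie1*, at 0.086, did not pass in 8 of 20 alternative fits, 6 of them without 1 library. *Pecam1*, at 0.22, turned to -0.27 with its most abundant transcript alone (adjusted p = 0.112 by edgeR). In hearts labelled Tg-GRK2, 1 of the 9 endothelial genes was higher, 4 were lower and 4 did not pass. The summed level of these endothelial genes was 536 to 543 TPM in Tg-RKIP, 406 to 411 TPM in hearts labelled Tg-GRK2 and 437 to 439 TPM in FVB, the same order as for *Fabp4* in TPM. In TMM-normalised counts their sum was instead lowest in Tg-RKIP, at 24457 to 24852 against 27225 to 27535 in hearts labelled Tg-GRK2 and 29335 to 29394 in FVB, whereas *Fabp4* was highest in Tg-RKIP on both scales.

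*Lipe* (chr7:25078952-25098135, minus strand) encodes hormone-sensitive lipase, which hydrolyses diacylglycerol during lipolysis. It had 28.7, 23.95 and 26.1 TPM in Tg-RKIP, 17.1, 15.9 and 16.5 TPM in hearts labelled Tg-GRK2 and 18.3, 14.4 and 15.3 TPM in FVB. The Tg-RKIP libraries were above the others, while the other two groups overlapped in TPM. The log2 fold change was 0.31 in Tg-RKIP against FVB (standard error 0.047, adjusted p = 4.10e-06 by edgeR) and 0.11 in hearts labelled Tg-GRK2 against FVB (standard error 0.050, adjusted p = 0.140 by edgeR). *Lipe* shares 918 exonic bases with the gene *4732471J01Rik* on the opposite strand, which had 3 to 15 reads per library.

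*Pparg* (chr6:115337912-115467360, plus strand) encodes the nuclear receptor that governs adipocyte differentiation. Its summed level was 11.6, 11.4 and 11.5 TPM in Tg-RKIP, 6.99, 7.30 and 6.84 TPM in hearts labelled Tg-GRK2 and 7.00, 6.56 and 7.71 TPM in FVB. On the scale of TMM-normalised counts it differed by 0.22 log2 units in Tg-RKIP against FVB (standard error 0.069, adjusted p = 0.00585 by edgeR), and without FVB replicate 2 it was 0.17 and lost the call (adjusted p = 0.0515 by edgeR). Hearts labelled Tg-GRK2 and FVB overlapped, at -0.031 (standard error 0.073, adjusted p = 0.814 by edgeR). Testing for a fold change of at least 1.5 left *Fabp4*, *Lipe* and *Pparg* without a call in Tg-RKIP against FVB and kept the other 7 genes, where 12.7% of all genes passed as higher.

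The reads of *Pparg* were also divided by the first exon of the transcript. *Pparg* is transcribed from alternative starts, and the transcript from the downstream start, ENSMUST00000000450, encodes the longer protein isoform known from adipocytes. This transcript begins at position 115399027 of chromosome 6, and it shares all of its 1767 bases but 127 with the 2 abundant transcripts from upstream starts, at 115337912 and 115339253. In the deposited table, the downstream transcript was given 278, 318 and 264 reads for Tg-RKIP hearts, and 102, 84 and 78 reads for FVB. The reads on the 2 upstream transcripts summed to 70, 123 and 60 in Tg-RKIP and 136, 167 and 169 in FVB. Thus the downstream transcript held 77.4% ± 5.21 of all *Pparg* reads in Tg-RKIP hearts and 35.8% ± 6.23 in FVB (mean ± s.d., n = 3 each), and the libraries of these groups did not overlap in either part. An exact permutation test of 3 against 3 libraries cannot go below p = 0.1, and none was run on this split. Hearts labelled Tg-GRK2 had 57.9%, 38.3% and 0.365% on the downstream transcript, with 1 read in replicate 3. How the reads of shared exons were divided is not given in the sources used here. A fit of the most abundant transcript in place of the gene sum gave a log2 fold change of 1.32 for Tg-RKIP against FVB, which did not pass (adjusted p = 0.212 by edgeR).

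**Figure D3:**
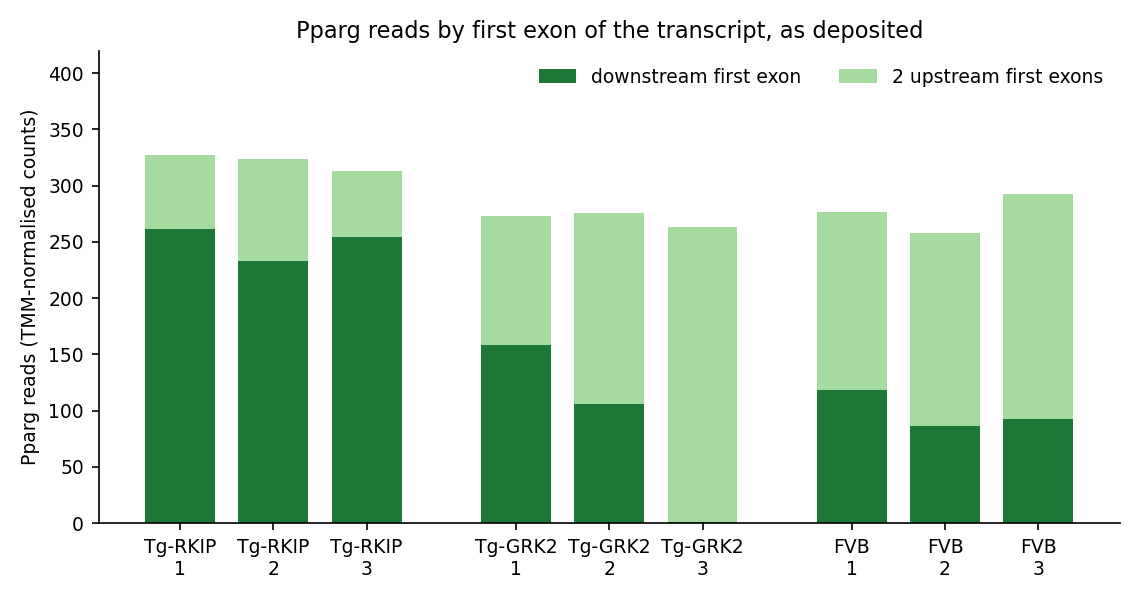
*Pparg* reads in TMM-normalised counts for each library, stacked by the first exon of the transcript to which the deposited table assigned them (up to 4 reads of other transcripts left out). The downstream part was 233 to 261 in Tg-RKIP and 86.3 to 118 in FVB, and 0.961 to 158 in hearts labelled Tg-GRK2.

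The mix of the genes differed between groups along with their levels. The summed TPM of the 10 genes was 1244 to 1266 in Tg-RKIP, 596 to 633 in the libraries labelled Tg-GRK2 and 653 to 679 in FVB. *Fabp4* held 90.2% of this sum in FVB, 82.7% in hearts labelled Tg-GRK2 and 68.1% in Tg-RKIP. *Car3* held 3.72%, 8.56% and 15.4% in the same order of groups, and *Cfd* held 1.22%, 1.52% and 7.45%. An exact two-sided permutation test on these shares reached its smallest possible p of 0.1, which could not pass the threshold for any gene. By mean TPM, the order in FVB was *Fabp4*, *Car3*, *Lipe*, *Cfd*, *Pparg*, *Adipoq*, *Cidec*, *Plin1*, *Retn* and *Lep*, where *Cfd* and *Pparg*, *Cidec* and *Plin1*, and *Retn* and *Lep* overlapped as neighbours. In Tg-RKIP hearts it was *Fabp4*, *Car3*, *Cfd*, *Adipoq*, *Lipe*, *Cidec*, *Plin1*, *Pparg*, *Retn* and *Lep*, where *Adipoq* overlapped with *Lipe* and *Lipe* with *Cidec*. *Cfd* thus stood above *Lipe*, and *Adipoq* above *Pparg*, unlike in FVB. In hearts labelled Tg-GRK2, *Lipe*, *Cfd* and *Pparg* still stood above *Adipoq*, which overlapped with *Cidec*.

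Relative to *Adipoq* in the same library, *Cidec* was at 0.839 ± 0.0436 in Tg-RKIP, 0.920 ± 0.0765 in hearts labelled Tg-GRK2 and 0.808 ± 0.0721 TPM per TPM in FVB (mean ± s.d., n = 3 each). FVB overlapped with both transgenic groups, and each library labelled Tg-GRK2 lay above each of Tg-RKIP. *Cfd* was at 3.32 ± 0.122 in Tg-RKIP, 1.47 ± 0.00659 in hearts labelled Tg-GRK2 and 2.68 ± 0.365 TPM per TPM of *Adipoq* in FVB, without overlap between groups. The ratio for *Lep* was lowest in Tg-RKIP at 0.123 ± 0.00337 and was 0.255 ± 0.00955 in hearts labelled Tg-GRK2 and 0.181 ± 0.0608 in FVB, where hearts labelled Tg-GRK2 overlapped with FVB. For *Plin1* it was 0.550 ± 0.0398, 0.882 ± 0.0860 and 0.793 ± 0.110 in the same order of groups. Like those of *Cidec*, the transcripts of *Cfd* exchanged reads between libraries of a group, and the ratios use sums over transcripts. These ratios are descriptions and were not tested.

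**Figure D4:**
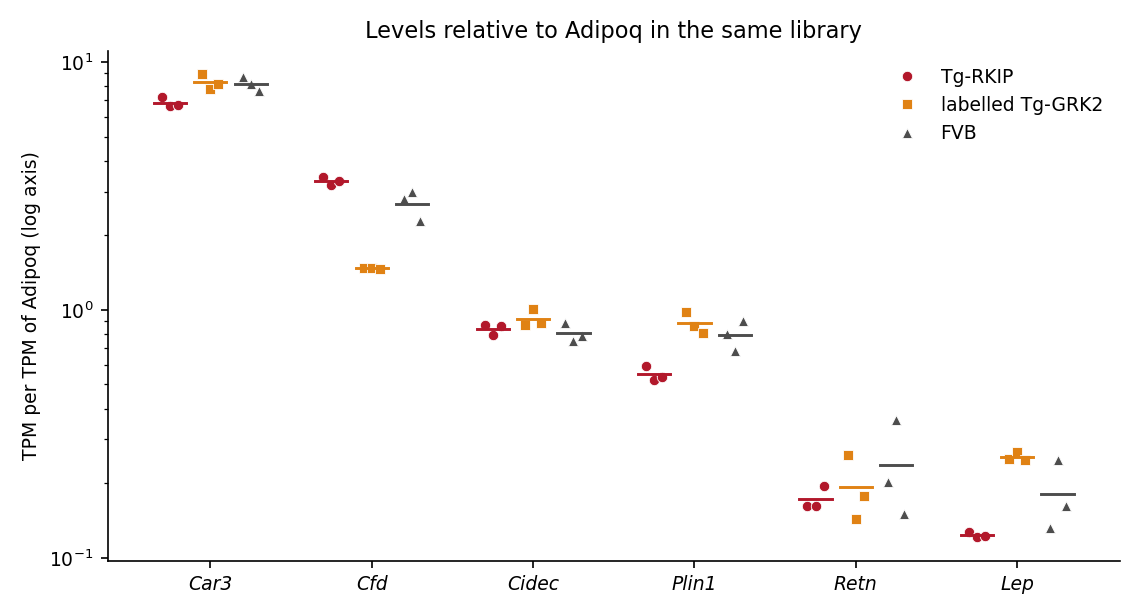
TPM of 6 genes per TPM of *Adipoq* in the same library, on a log axis, with points for libraries and lines for group means (n = 3). Hearts labelled Tg-GRK2 had the lowest *Cfd* per *Adipoq*, at 1.47, and the highest *Lep* per *Adipoq*, at 0.255.

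Over the 9 libraries, the profile of each gene was compared with that of *Adipoq* by the root mean square difference of log2 TMM-normalised counts, each gene being centred on its own mean. Of the other 9 genes, *Cidec* was the closest at 0.128, and none of the 14283 genes ranked outside the list was closer. *Car3* followed at 0.160 with 1 closer gene, *Plin1* at 0.313 with 23, *Retn* at 0.391 with 81, *Cfd* at 0.472 with 203 and *Lep* at 0.501 with 258. *Lipe*, *Pparg* and *Fabp4* were at 1.03 to 1.11. The 5 closest genes outside the list were *Col1a1*, the collagen type I gene, at 0.157, *Uts2b* at 0.174, *Adamts8* at 0.180, the immunoglobulin gene *Igkc* at 0.197 and *Nnat* at 0.207. The points share 3 groups and 9 libraries, and the likeness is a description of group levels.

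Genes of the same biology were read from lists chosen for their function. Counts of called genes in this and every other list are to be read against all 15504 genes tested. Of these, 5709 were higher and 5751 lower in Tg-RKIP against FVB, and 1895 were higher and 1898 lower in hearts labelled Tg-GRK2. In a list of 13 other white adipocyte genes, 8 were higher, 3 lower and 2 did not pass in Tg-RKIP against FVB, with a median log2 fold change of 0.40. Those that rose most were *Slc7a10*, an amino acid transporter of white adipocytes, at 2.94 (adjusted p = 4.55e-07 by edgeR), *Nnat* at 2.76 (adjusted p = 1.70e-14 by edgeR) and the activin receptor gene *Acvr1c* at 2.49 (adjusted p = 9.86e-07 by edgeR). *Cd36*, *Slc2a4* and *Slc36a2* were the 3 that fell, of which *Cd36* and *Slc2a4* also serve fatty acid and glucose uptake in cardiomyocytes. In hearts labelled Tg-GRK2, 7 of these 13 genes were higher, 2 lower and 4 not called against FVB. Of the 7, *Orm1* at 1.15 did not pass in 9 of 20 alternative fits, and of the 2 lower, *Cd36* at -0.087 did not pass in 6 of 20. *Acvr1c* rose by 1.86 there (adjusted p = 0.000683 by edgeR), from only 3, 7 and 7 reads in FVB. By limma on log2(TPM + 0.1) without a filter it was at 0.72 (adjusted p = 0.0534). *Slc7a10* had 9, 6 and 6 reads in these hearts against 4, 5 and 2 in FVB and did not pass.

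Brown adipocyte genes were measured alongside. Of 6 tested, 5 were higher and 1 lower in Tg-RKIP against FVB, where 36.8% of all genes were higher. In hearts labelled Tg-GRK2, 4 were higher and 2 not called, where 12.2% of all genes were higher. *Ucp1*, the uncoupling protein gene of brown fat, had 384, 469 and 354 reads in Tg-RKIP, 205, 184 and 184 reads in hearts labelled Tg-GRK2 and 27, 46 and 37 reads in FVB. Its log2 fold change against FVB was 3.08 (adjusted p = 1.14e-15 by edgeR) and 2.28 (adjusted p = 5.15e-11 by edgeR). *Adrb3*, the beta-adrenoceptor gene of adipocytes, rose by 3.08 (adjusted p = 1.80e-09 by edgeR) and 2.55 (adjusted p = 1.44e-06 by edgeR), from 5, 9 and 4 reads in FVB. The latter did not pass for its most abundant transcript alone, at 2.41 (adjusted p = 0.143 by edgeR). *Ucp1* and *Adrb3* had larger fitted values than *Adipoq* in both transgenic groups, and the difference between the genes was not tested. *Prdm16*, a coregulator of brown adipocyte identity, was the gene that fell in Tg-RKIP hearts, by 0.82, but its most abundant transcript alone did not pass, at -0.38 (adjusted p = 0.791 by edgeR). In hearts labelled Tg-GRK2, *Prdm16* was instead among the 4 higher genes, at 0.38, which did not pass in 4 of 20 alternative fits. *Elovl3* and *Zic1* were not tested.

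Other genes of fat storage moved in both directions. Of 16 lipid droplet and lipolysis genes, 5 were higher, 9 lower and 2 not called in Tg-RKIP against FVB, and their median was -0.26. Their summed TPM ranged from 1024 to 1031 in Tg-RKIP against 915 to 928 in FVB. In TMM-normalised counts their sum was instead lower in Tg-RKIP, at 38490 to 38965 against 46732 to 46956 in FVB. Of the 9 that were lower, 3 turned to a positive value when libraries were scaled to size alone. *Lipa*, *Gpd1* and *Bscl2* were among the 5 that rose, by 0.87, 0.86 and 0.69. *Plin5*, the perilipin of oxidative muscle, fell by 1.03 on the log2 scale (adjusted p = 3.94e-18 by edgeR) where *Plin1* rose by 2.47. Of 15 tested genes of fatty acid uptake and triglyceride synthesis, 4 were higher, 10 lower and 1 not called, and 1 of the 10 turned positive with scaling to size alone. *Acsl1* fell from 353 ± 0.730 to 167 ± 1.77 TPM (mean ± s.d., n = 3 each; adjusted p = 4.57e-25 by edgeR), and *Dgat2* fell by 1.37 on the log2 scale (adjusted p = 1.85e-22 by edgeR). Of the 4 that rose, *Pck1* rose most and *Fabp5*, *Agpat2* and *Gpat4* rose by 0.36 or less, where *Agpat2* did not pass without FVB replicate 2, at 0.11 (adjusted p = 0.0631 by edgeR). *Pck1* encodes an enzyme that makes the glycerol backbone for triglycerides in adipocytes. It had 17.9 ± 0.147 TPM in Tg-RKIP, 5.15 ± 0.566 TPM in hearts labelled Tg-GRK2 and 1.42 ± 0.203 TPM in FVB (mean ± s.d., n = 3 each), with log2 fold changes of 3.24 (adjusted p = 1.18e-18 by edgeR) and 1.80 (adjusted p = 4.86e-11 by edgeR) against FVB.

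Of 18 adipogenic transcription factors and partners other than *Pparg*, 9 were higher and 9 lower in Tg-RKIP against FVB, and 2 of the lower ones turned positive with scaling to library size alone. *Cebpa*, the partner of *Pparg* in adipocyte differentiation, had 22.9 ± 1.43 TPM in Tg-RKIP, 8.05 ± 0.841 TPM in hearts labelled Tg-GRK2 and 5.58 ± 0.585 TPM in FVB (mean ± s.d., n = 3 each). Its log2 fold change against FVB was 1.62 (adjusted p = 1.06e-14 by edgeR) and 0.54 (adjusted p = 6.27e-05 by edgeR). With its most abundant transcript alone, the latter turned to -0.18 and did not pass (adjusted p = 0.687 by edgeR). *Klf5* rose by 1.33 in Tg-RKIP hearts (adjusted p = 0.000676 by edgeR) from 7 to 20 reads in FVB. *Rxrg*, a retinoid X receptor gene expressed in muscle, fell by 1.48 (adjusted p = 2.47e-18 by edgeR). Of the other C/EBP genes, *Cebpb* and *Cebpd* were higher in Tg-RKIP hearts by 0.26 and 0.89. In hearts labelled Tg-GRK2, *Cebpb* was lower than in FVB, at -0.42, and *Cebpd* was higher, at 0.23, which did not pass in 7 of 20 alternative fits.

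Further adipokines and the receptors also moved in both directions. Among 10 other adipokine genes tested, 4 were higher, 4 lower and 2 not called in Tg-RKIP against FVB. *Rbp4*, the retinol-binding protein gene, rose by 1.83 (adjusted p = 4.92e-11 by edgeR) and *Lcn2*, the lipocalin 2 gene, by 1.19 (adjusted p = 4.28e-06 by edgeR). *Nampt* and *Sfrp5* fell by 1.29 and 1.22 on the log2 scale. Among 10 adipokine receptor genes tested, 1 was higher, 6 were lower and 3 did not pass, and *Ccrl2*, a chemerin-binding receptor gene, fell most, by 1.09, but its most abundant transcript alone did not pass, at -0.65 (adjusted p = 0.0956 by edgeR). The leptin receptor gene *Lepr* was lower in Tg-RKIP hearts, with a log2 fold change of -0.73. The adiponectin receptor gene *Adipor1* had a log2 fold change of -0.14, which turned to 0.23 when libraries were scaled to size alone, and its TPM was 94.7 ± 1.24 in Tg-RKIP against 78.4 ± 1.14 in FVB (mean ± s.d., n = 3 each). With that scaling, 2 of the 4 lower adipokine genes and 2 of the 6 lower receptor genes turned to positive values.

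**Figure D5:**
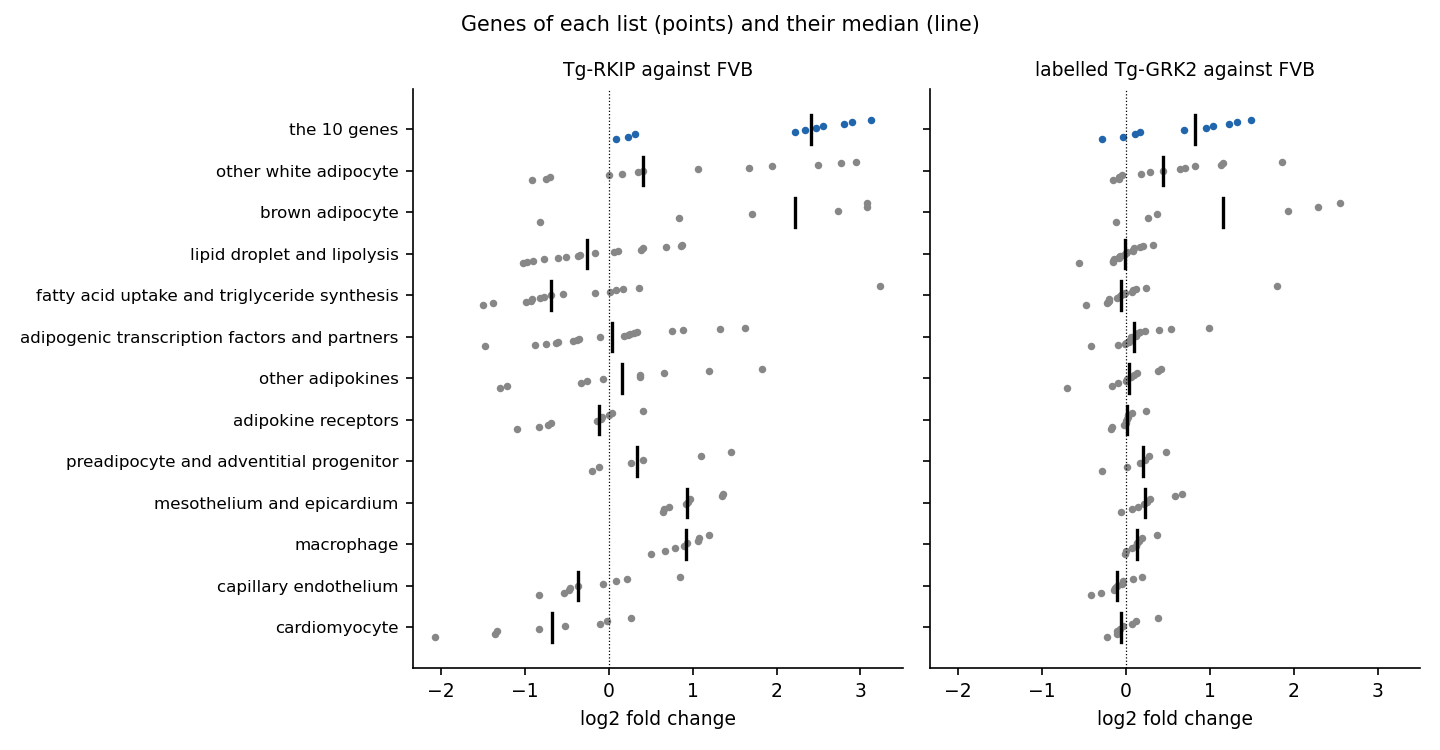
The log2 fold changes of TMM-normalised counts for the tested genes of each list, with 1 point per gene and a line at the median, in Tg-RKIP (left) and in hearts labelled Tg-GRK2 (right) against FVB. The 10 genes had medians of 2.41 and 0.82, while lipid droplet genes had -0.26 and -0.012; airway and skeletal muscle lists are not drawn.

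Markers of other tissues moved with the groups. All 8 mesothelial and epicardial genes were higher in Tg-RKIP than in FVB hearts, with a summed level of 88.2 to 90.7 TPM against 32.1 to 35.1 TPM, and 40.1 to 45.2 TPM in hearts labelled Tg-GRK2. All 8 macrophage genes were higher as well, at 743 to 752 TPM against 290 to 299 TPM, and 326 to 342 TPM in hearts labelled Tg-GRK2. Of all genes tested, 36.8% were higher in Tg-RKIP than in FVB hearts. In TMM-normalised counts the mesothelial sums were 3728 to 3814 in Tg-RKIP, 2269 to 2532 in hearts labelled Tg-GRK2 and 1895 to 2080 in FVB. The macrophage sums were 17946 to 18023, 10830 to 11481 and 9858 to 10064 in the same order of groups. Of 6 tested genes of preadipocytes and adventitial progenitors, 4 were higher and 2 lower in Tg-RKIP hearts, and *Pi16* rose by 1.46 (adjusted p = 5.43e-20 by edgeR). The 2 lower genes, *Ly6a* at -0.12 and *Dpp4* at -0.20, turned to 0.25 and 0.17 when libraries were scaled to size alone, and *Dpp4* did not pass in 3 of 9 fits without 1 library. Among 8 airway genes, the 5 tested were higher in both transgenic groups than in FVB. In FVB, 7 of the 8 had at most 3 reads in any library. Such genes could pass the expression filter only through the transgenic groups, so their direction was given by the filter and their count is no separate result. The club cell gene *Scgb1a1* had 388 to 510 reads in Tg-RKIP, 1085 to 1284 reads in hearts labelled Tg-GRK2 and 0 reads in each FVB library. The summed airway level was 93.0 to 98.0 TPM in Tg-RKIP and 195 to 203 TPM in hearts labelled Tg-GRK2, which is the reverse of the order found for all 10 adipocyte genes. The mesothelial and macrophage sums had the same order of groups as *Adipoq*. The part of attached tissue in the levels of the 10 genes was not tested.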

How the data were processed

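The authors deposited read counts per transcript, without normalisation, and TPM values, which equal those recomputed from counts and transcript lengths to within 5.50e-06. Build GRCm39 is from the submitters' processing notes, and aligner and counting program are not given in the sources used here. How reads shared by transcripts were divided is not given either. Sequencing was with single reads of random-primed cDNA. Counts and TPM were summed by gene name. The count test was that of edgeR 4.0.16 under R 4.3.3 (TMM, filterByExpr, glmQLFit and glmQLFTest, all 9 libraries, group means), with Benjamini-Hochberg adjustment over 15504 genes and a threshold of 0.05. The libraries held 25458108 to 33447654 reads, and no pair of libraries was identical. Each heart counts as 1 replicate. Alternatives were other scalings and filters, DESeq2 1.42.0, limma 3.58.1 on log2(TPM + 0.1) or log2(TPM + 1), the replicate number as a block, a fold change of at least 1.5, the most abundant transcript and each library left out. Tested on simulated data for Tg-RKIP against FVB (14781 genes), edgeR recovered 78.7%, 92.2% and 100% of changes of 0.5, 1 and 2 log2 units. Of 188 calls, 18 were false, a larger share than the threshold of 0.05. The simulation changed only 61, 64 and 63 of the genes tested at these sizes, up and down alike. It is therefore no check of the scaling or the calls under the wide shift of these data. The genes and lists were chosen with earlier results of these data known. Named from each list were at most 3 genes per direction with a log2 fold change of at least 1 and at least 20 mean reads, the first marker of a cell type list, and the 5 genes closest to *Adipoq*. *Cebpb*, *Cebpd*, *Cd36*, *Slc2a4*, *Slc36a2*, *Orm1*, *Prdm16*, *Lepr*, *Adipor1*, *Tnnt2*, *Lipa*, *Gpd1*, *Bscl2*, *Fabp5*, *Agpat2*, *Gpat4*, *Tnni3*, *Ly6a*, *Dpp4*, *Cdh5*, *Tek* and *Tie1* were named outside this rule after their values were seen. Promoters are RefSeq sequences of GRCm38.p6, and coordinates of that build were not converted.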

Additional observations from a re-analysis of the deposited data

How the results depend on the processing

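The log2 fold changes of the 10 genes kept direction and side of the threshold in 613 of 630 values recomputed under the alternatives. A change of sign occurred for *Pparg* in the libraries labelled Tg-GRK2 against FVB, which ranged from -0.085 to 0.021 over the fits with 1 library left out and was 0.021 without FVB replicate 3. A test for a fold change of at least 1.5 called 3665 genes in place of 11460 in Tg-RKIP against FVB, 155 in place of 3793 in the libraries labelled Tg-GRK2 against FVB, and 3867 in place of 11551 between the transgenic groups, where 6 of the 10 genes in place of 10 passed (13.1% of all genes passed as higher). These counts are lower because the test asks for a larger change. In the libraries labelled Tg-GRK2 against FVB, limma on log2(TPM + 0.1) without a filter called 2060 genes and the most abundant transcript 1660; the cause was not tested. Scaling to library size alone put 9710 genes higher and 2649 lower in Tg-RKIP against FVB, in place of 5709 and 5751, and 9608 and 2847 against the libraries labelled Tg-GRK2, in place of 5874 and 5677. Leaving out 1 library at a time, 9 to 10, 6 to 7 and 10 of the 10 genes were called in Tg-RKIP against FVB, the libraries labelled Tg-GRK2 against FVB, and between the transgenic groups, among 11012 to 11570, 3114 to 3773 and 11156 to 11658 genes. Same-numbered libraries did not deviate together (r from -0.0341 to 0.0451), and the replicate number as a block gave 11401, 3660 and 11491 genes, with 10, 6 and 10 of the 10 genes. At 8 to 49 reads in FVB, the depth limits what can be said of *Retn* and *Lep*.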
